A study of Arabidopsis thaliana with 6 samples.

Results

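The UGT genes of Arabidopsis thaliana encode glycosyltransferases, and 46 of them could be followed here, each on a probe set of its own out of 22746 tested. On this array each transcript is read by several short oligonucleotides together, which give 1 intensity per probe set. The members are all genes whose symbol is UGT followed by a number and that are named alone on a probe set, without UGT75C1 and UGT78D2, which belong to anthocyanin and flavonol synthesis. Each of the 46 had 1 such probe set, so no choice between probe sets was needed. The number after UGT marks a group of related sequences and the letter a subgroup.

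The material was whole rosettes of accession Col-0, on 6 arrays in 3 groups of 2 named as biological replicates. Every plant, controls included, carried the transgene 35S:HF-RPL18B, a tagged ribosomal protein driven by the 35S promoter, which is active in most tissues. Plants grew in soil under 16 h of light. Control plants were untreated. PBZ plants received, on day 14, 10 mL of a solution of paclobutrazol, an inhibitor of gibberellin synthesis, at 50 mg per L (0.5 mg per pot). GA plants received the gibberellin GA3 at 50 µM as a spray, 1 mL per plant on alternate days. No spray is described for the other groups, so spraying and GA3 cannot be told apart. No mock watering is described either. The watering, blocked gibberellin synthesis and any other effect of paclobutrazol therefore cannot be told apart. Harvest was on day 27 by the sample titles and day 25 by another label. The labels name total RNA as the molecule, while their protocol also describes ribosome-bound RNA from the same lysate.

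UGT enzymes move a sugar, in most cases glucose from UDP-glucose, onto small molecules. Their targets in Arabidopsis include hormones (auxin, cytokinin, abscisic acid, salicylate), lignin precursors, flavonoids, glucosinolate precursors and foreign chemicals. The added sugar usually makes the target more soluble and often inactive or ready for storage in the vacuole, and beta-glucosidases can take it off again.

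Median intensity was 32.4 to 33.9 on the 6 arrays, and log2 values correlated at 0.981 to 0.988 within and 0.967 to 0.986 between groups (Pearson, over all probe sets). Of 29 leaf and photosynthesis markers 4 had a probe set of their own (LHCB4.1, LHCB4.2, PSAE-1 and RCA), and their summed intensity was 14940 to 18469 in control, 16236 to 16329 in PBZ and 15225 to 16304 in GA. Of 14 root markers only EXPA7 was found by symbol on a probe set of its own. It had 2.5 to 4.9 in control, 5.7 to 12.4 in PBZ and 3.4 to 6.2 in GA. Of the flower, seed and pollen markers 0 were found. Here and below, a listed gene counts as measured only if the annotation used gives its symbol alone on a probe set. Other listed genes may lie on the array under another name, or on shared or unnamed probe sets. The ratio of the 3' to the 5' probe set of the GAPDH control, a sign of RNA length, was 1.54 in PBZ replicate 2 and 2.57 to 3.36 in the other arrays, and its part in the results was not tested.

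Many members were dim. Intensities are on a linear scale with a common mean set by the authors, and 23 of the 46 members (50.0%) had a mean over all arrays of at least 10, against 70.9% of all probe sets. A further 6 members had at least 1 array at 10 or more, and 17 stayed under 10 in every array. Below this level the pseudocount of 10, added before taking log2, sets most of the fold change. Fold changes and their folds are therefore given on the scale of intensity + 10 and are smaller than the ratio of the intensities. Probes bind with different strength, so an intensity gives no order of transcript levels between genes.

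**Figure D1:**
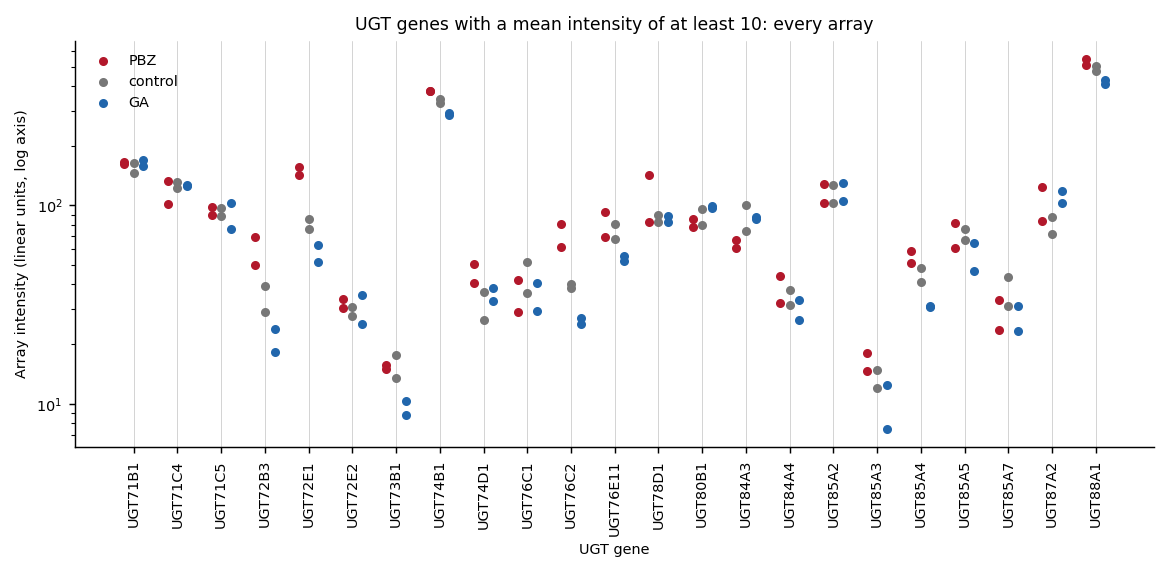
Intensity (linear units, log axis) of the 23 UGT genes with a mean of at least 10, with 1 point per array and 2 arrays each in PBZ, control and GA. UGT72B3, UGT72E1, UGT76C2 and UGT85A4 run from PBZ at the top through control to GA at the bottom with no overlap of arrays.

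GA against PBZ, the comparison of GA3-sprayed with paclobutrazol-treated rosettes, was the only comparison in which members passed. UGT72E1, UGT76C2 and UGT72B3 fell in GA relative to PBZ rosettes, and 0 members rose (limma over all probe sets, adjusted p under 0.05). These are 3 of 46 members, 6.52%, where 1.01% of all probe sets were called lower and 2.97% in either direction.

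UGT72E1 (AT3G50740), which glucosylates the lignin precursor aldehydes coniferyl and sinapyl aldehyde, had intensities of 156.1 and 142.8 in the PBZ arrays, 76.0 and 85.7 in control and 63.3 and 52.2 in GA. All 3 groups were separate, with PBZ high and GA low. The level was 149 ± 9.40 (SD, n = 2) in PBZ and 57.8 ± 7.85 in GA, and intensity + 10 was 2.36-fold lower in GA, a log2 difference of -1.24 with an SE of 0.14 (limma, adjusted p = 0.0153).

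UGT76C2 (AT5G05860), which with UGT76C1 attaches glucose to ring nitrogens of cytokinins, had 81.0 and 61.7 in PBZ, 40.1 and 38.6 in control and 25.2 and 27.2 in GA. Again PBZ lay above control and control above GA in every array. The level went from 71.3 ± 13.6 in PBZ to 26.2 ± 1.41 in GA, and intensity + 10 was 2.23-fold lower, with a log2 difference of -1.16 and an SE of 0.15 (limma, adjusted p = 0.0212).

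UGT72B3 (AT1G01420), a relative of the enzyme for chlorophenols and lignin precursors named GT72B1, had 69.4 and 49.9 in PBZ, 29.2 and 39.2 in control and 23.8 and 18.2 in GA. The groups did not overlap, although the PBZ arrays differed from each other by more than the lower of them differed from the nearest control array. The level went from 59.7 ± 13.8 to 21.0 ± 3.96, and intensity + 10 was again 2.23-fold lower, with a log2 difference of -1.16 and an SE of 0.20 (limma, adjusted p = 0.0443).

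All 3 calls ended when either PBZ or either GA array was left out, with 1 as the pseudocount, or with all intensities under 10 set to 10 (0 of 46 members in each). The share of all probe sets called also went down, from 2.97% to 0% without either GA array, 0.163% and 0.106% without PBZ replicate 1 and 2, 0.413% with the pseudocount of 1 and 1.28% with the floor. The log2 fold changes of UGT72E1, UGT76C2 and UGT72B3 were -1.36, -1.40 and -1.46 with the pseudocount of 1, and -1.36 to -0.96 over the 3 genes without a PBZ or GA array. With either control array left out, and with PBZ and GA fitted alone, UGT72E1 was the 1 member called, with 1.25% of all probe sets called in each. Those settings amount to the same fit for this comparison, since a lone control array adds no spread, so they are not separate checks. In whole rosettes, fewer cells of a type and less RNA per cell cannot be told apart.

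**Figure D2:**
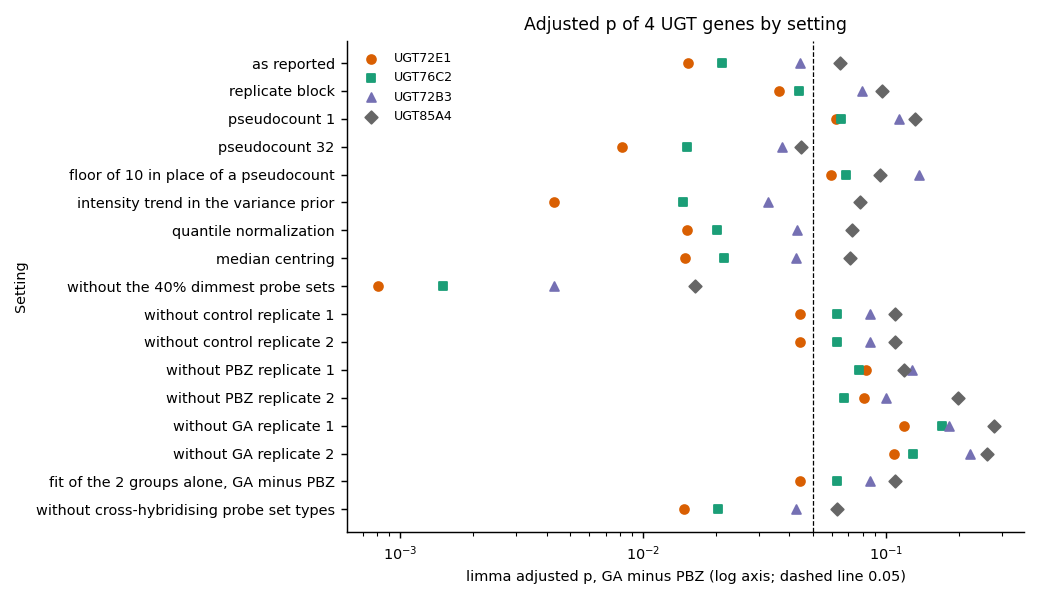
Adjusted p (log axis, limma) for GA minus PBZ of UGT72E1, UGT76C2, UGT72B3 and UGT85A4 as reported and under 16 alternative settings, with a dashed line at 0.05. Leaving out either control array and fitting PBZ and GA alone are the same fit for this comparison. The counts that follow still take them as separate alternatives. UGT72E1 passed in 10 of the 16 alternatives, UGT76C2 in 7, UGT72B3 in 6 and UGT85A4 in 2.

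Over all 46 members, these 3 included, the median log2 fold change was -0.13, against -0.0468 over all probe sets. Over those with a mean of at least 10 it was -0.28 against -0.0518. Of the 46, 32 members (69.6%) had a negative value against 57.8% in the background. By unadjusted p under 0.05 (limma) there were 9 lower members (19.6%, background 9.76%) and 1 higher (2.17%, background 8.29%), 21.7% in either direction against 18%. The GA arrays were all below the PBZ arrays in 15 members (32.6%, background 28.3%) and all above in 7 (15.2%, background 19.1%).

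UGT85A4 (AT1G78270) had 51.3 and 58.8 in PBZ, 41.0 and 48.4 in control and 31.3 and 30.8 in GA, with no overlap between the groups (log2 fold change GA against PBZ -0.66, SE 0.13, limma adjusted p = 0.0647). It passed with a pseudocount of 32 (adjusted p = 0.0448) and without dim probe sets (0.0164), and its adjusted p ran from 0.0164 to 0.277 over 16 alternatives. UGT76E11 (AT3G46670), active on flavonoids in vitro, had 93.1 and 69.0 in PBZ, 67.8 and 81.1 in control and 55.6 and 52.8 in GA, so only the GA arrays stood apart (log2 fold change -0.49, adjusted p = 0.215). The glucosinolate enzyme UGT74B1 (AT1G24100), which glucosylates the thiohydroximate precursors, had 377.6 and 378.1 in PBZ, 345.3 and 326.8 in control and 291.3 and 285.0 in GA. Its replicates lay close together and the groups were separate, yet GA against PBZ did not pass (log2 fold change -0.38, SE 0.12, adjusted p = 0.164). UGT88A1 (AT3G16520) had 507.1 and 544.9 in PBZ, 502.1 and 474.0 in control and 427.9 and 408.9 in GA (log2 fold change -0.32, adjusted p = 0.238).

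On the higher side in GA against PBZ, UGT84A3 (AT4G15490), one of the enzymes that make glucose esters of hydroxycinnamic acids, had 67.0 and 60.9 in PBZ, 100.0 and 74.6 in control and 85.7 and 87.4 in GA. PBZ was below all other arrays (log2 fold change 0.39, SE 0.16, adjusted p = 0.282). UGT80B1 (AT1G43620), a sterol glucosyltransferase also known as TT15, had 77.6 and 85.6 in PBZ, 95.5 and 79.5 in control and 99.6 and 97.4 in GA (log2 fold change 0.25, adjusted p = 0.419). These were the only members with a mean of at least 10 whose GA arrays were all above the PBZ arrays, against 10 such members with all GA arrays below. Over all probe sets, dim ones included, 19.1% had all GA arrays above and 28.3% all below.

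In 6 members every GA array was below every control array and every control array below every PBZ array, namely UGT72B3, UGT72E1, UGT74B1, UGT76C2, UGT85A4 and UGT88A1. That is 13.0% of the 46 members against 4.21% of all probe sets. The opposite order, PBZ below control below GA, was found in 0 members and in 3.32% of all probe sets. Each of the 6 had a mean intensity of at least 10.

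**Figure D3:**
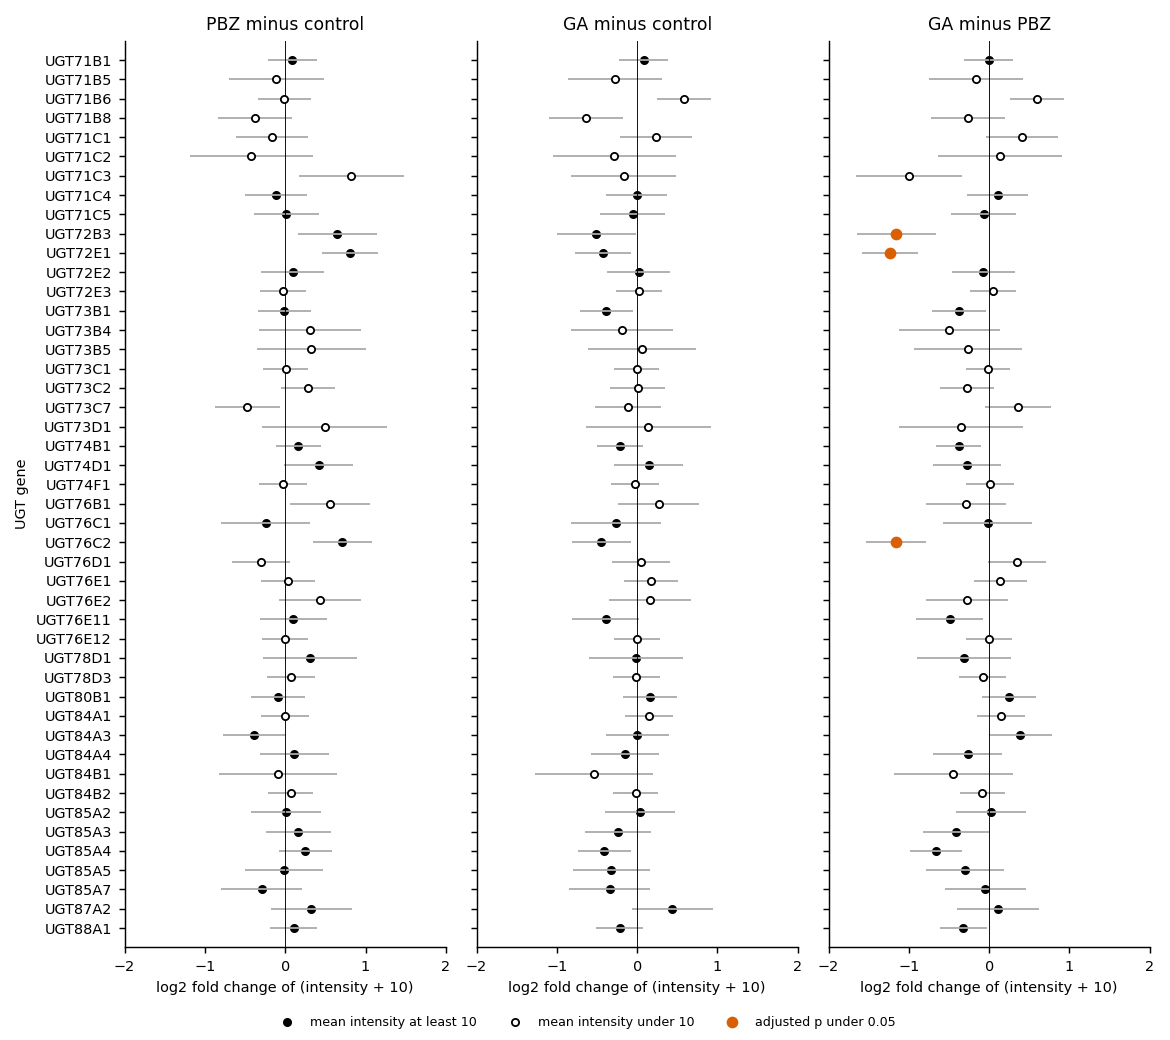
Log2 fold change of (intensity + 10) with its 95% confidence interval for all 46 UGT genes in the 3 comparisons, ordered by UGT number, with open circles for genes with a mean intensity under 10 and orange points for an adjusted p under 0.05. The orange points are UGT72B3, UGT72E1 and UGT76C2 in GA minus PBZ.

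PBZ against control compared paclobutrazol-treated with untreated rosettes. None of the 46 members passed (limma, smallest adjusted p = 0.0952, background 0.514% of all probe sets), and 6 (13.0%) had an unadjusted p under 0.05 against 13.7% of all probe sets. The PBZ arrays were all above control in 12 members (26.1%, background 23.2%) and all below in 6 (13.0%, background 18.5%), and 17 members (37.0%) had a log2 fold change below 0 against 45.7% of all probe sets. Of the unadjusted differences 5 were higher (10.9%, background 7.41%) and 1 was lower (2.17%, background 6.31%). The median log2 fold change was 0.0499 over the members and 0.0252 over all probe sets, and 0.100 against 0.0220 over those with a mean of at least 10. The largest differences among members with a mean of at least 10 and separate arrays were those of UGT72E1 (intensity + 10 was 1.76-fold higher in PBZ, log2 fold change 0.81, SE 0.14, adjusted p = 0.0952), UGT76C2 (0.71, SE 0.15, adjusted p = 0.135) and UGT72B3 (0.65, SE 0.20, adjusted p = 0.251). UGT72E1 passed in this comparison with a pseudocount of 32 (limma adjusted p = 0.0472, background 1.09%). It also passed when the prior variance followed intensity (0.0413, background 1.46%) and without dim probe sets (0.0170, background 4.12%). The last of these settings also passed UGT76C2 (0.0332). Over their 16 alternatives the adjusted p ran from 0.0170 to 0.385 for UGT72E1 and from 0.0332 to 0.409 for UGT76C2.

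The next in size was UGT74D1 (AT2G31750), which glucosylates auxins, at 26.6 and 36.8 in control, 50.5 and 40.5 in PBZ and 38.3 and 33.1 in GA. The PBZ arrays were above the control arrays by a small margin (log2 fold change 0.42, SE 0.18, adjusted p = 0.374). UGT84A3 was the 1 member with a mean of at least 10 whose PBZ arrays were all below control (log2 fold change -0.38, adjusted p = 0.372). A pair of dim genes had differences of similar size and were singled out after their values were seen. UGT71C3 (AT1G07260), linked to methyl salicylate conjugation, had 1.4 and 9.9 in control, 19.3 and 14.3 in PBZ and 2.9 and 3.9 in GA. UGT76B1 (AT3G11340), which glucosylates salicylate, isoleucic acid and N-hydroxypipecolic acid, had 0.8 and 0.7 in control, 9.4 and 2.9 in PBZ and 3.5 and 2.4 in GA. Values of 0.83 and 0.56 for these genes on the log2 scale (adjusted p = 0.268 and 0.321) depend on the pseudocount and ran from 0.38 to 1.78 and from 0 to 1.86 over 15 alternatives.

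The comparison of GA with control concerns GA3 sprayed on plants whose own gibberellin synthesis was not blocked. None of the 46 members passed (limma, smallest adjusted p = 0.293), and the background was 0% of all probe sets, while 7 members (15.2%) had an unadjusted p under 0.05 against a background of 8.49%. Of these 1 was higher (2.17%, background 4.74%) and 6 were lower (13.0%, background 3.75%). The GA arrays were all above control in 5 members (10.9%, background 16.8%) and all below in 12 (26.1%, background 22.2%), and 28 members (60.9%) had a log2 fold change below 0 against 54.8% of all probe sets. The median log2 fold change was -0.0163 over the members and -0.0213 over all probe sets, and -0.21 against -0.0274 over those with a mean of at least 10. Among members with a mean of at least 10 and separate arrays, the largest negative values were those of UGT72B3 (-0.51, SE 0.20), UGT76C2 (-0.45, SE 0.15), UGT72E1 (-0.43, SE 0.14), UGT85A4 (-0.41, SE 0.13) and UGT76E11 (-0.39), with limma adjusted p from 0.465 to 0.626. PBZ against control and GA against control share the control arrays, so the opposite signs of these genes in both comparisons are not independent.

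The largest positive value among such members was that of UGT87A2. UGT87A2 (AT2G30140), known for effects on flowering time, had 87.3 and 71.5 in control, 102.8 and 118.8 in GA and 123.5 and 83.3 in PBZ. Both GA arrays were above control, while the PBZ arrays spread across that range (log2 fold change GA against control 0.44, SE 0.21, adjusted p = 0.653). UGT80B1 followed at 0.16 (adjusted p = 0.846). The smallest unadjusted p belonged to a dim gene, UGT71B6 (AT3G21780), which glucosylates abscisic acid. It had 1.9 and 0.3 in control, 0.7 and 1.3 in PBZ and 7.5 and 5.7 in GA, with GA above all other arrays but under the pseudocount of 10. Its log2 fold change of 0.58 (adjusted p = 0.293) ran from 0 to 1.96 over 15 alternatives. Another abscisic acid enzyme nearby, UGT71B8 (AT3G21800), went the other way with 10.3 and 9.7 in control, 7.9 and 3.3 in PBZ and 1.5 and 4.3 in GA (log2 fold change -0.64, adjusted p = 0.402, range -1.59 to -0.0213).

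**Figure D4:**
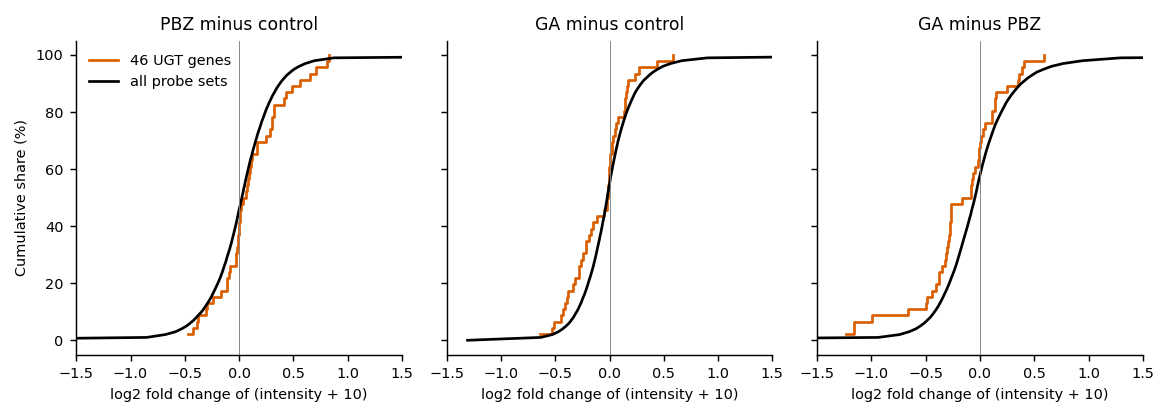
Cumulative share (%) of log2 fold changes of (intensity + 10) for the 46 UGT genes (orange steps) and all 22746 probe sets (black) in the 3 comparisons. The UGT median is 0.0499, -0.0163 and -0.13 from left to right, against 0.0252, -0.0213 and -0.0468 for all probe sets.

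By UGT number, group 71 had 9 members, of which UGT71B1, UGT71C4 and UGT71C5 had a mean of at least 10. UGT71B1 (AT3G21750) had 163.7 and 145.3 in control, 166.4 and 162.2 in PBZ and 169.0 and 158.8 in GA. UGT71C4 (AT1G07250) had 131.1 and 122.4, 133.2 and 101.2, and 126.9 and 125.0 in the same order. UGT71C5 (AT1G07240), which makes the glucose ester of abscisic acid, had 96.8 and 88.7, 89.5 and 97.9, and 103.3 and 76.4. The groups overlapped for all 3 genes in every comparison. For UGT71C5 the 95% confidence interval of the log2 fold change was -0.39 to 0.42 in PBZ against control and -0.46 to 0.35 in GA against control. The values are thus compatible with changes of either sign within those bounds. The other 6 members had means under 10, and their log2 fold changes in GA against PBZ ran from -0.99 in UGT71C3 to 0.59 in UGT71B6.

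Group 72 had 4 members and 2 of the 3 calls. UGT72E2 (AT5G66690), which glucosylates the alcohols coniferyl and sinapyl alcohol, had 30.9 and 27.9 in control, 33.7 and 30.3 in PBZ and 35.3 and 25.2 in GA. The groups overlapped, unlike those of UGT72E1, and the interval of its log2 fold change in GA against PBZ was -0.46 to 0.32. UGT72E3 (AT5G26310), with related activity, stayed between 0.8 and 1.7 in all arrays.

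Group 73 had 7 members and 1, UGT73B1 (AT4G34138), with a mean of at least 10. It had 17.7 and 13.5 in control, 15.7 and 15.0 in PBZ and 10.3 and 8.8 in GA, and only the GA arrays stood apart (log2 fold change GA against control -0.39, adjusted p = 0.506). UGT73B4 (AT2G15490) and UGT73B5 (AT2G15480), both induced by pathogens and active on foreign or stress compounds, had at most 9.0 and 9.4. Each reached that value in PBZ replicate 2, with every other array at 4.2 or less. UGT73D1 showed the same picture, with 11.1 in PBZ replicate 2 and 0.5 to 2.7 elsewhere. These 3 values came from 1 array, PBZ replicate 2, the one with the GAPDH ratio of 1.54. UGT73C1, which acts on cytokinins and foreign compounds, stayed at 0.5 to 0.9. UGT73C7 (AT3G53160), singled out after its values were seen, had 9.2 and 5.9 in control, 4.0 and 1.3 in PBZ and 6.8 and 5.5 in GA (log2 fold change PBZ against control -0.47, adjusted p = 0.299, 0 with a floor of 10).

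Group 76 had 8 members, 3 of them with a mean of at least 10. UGT76C1 (AT5G05870), the close partner of UGT76C2 in cytokinin conjugation, had 51.9 and 36.4 in control, 29.1 and 42.3 in PBZ and 29.4 and 40.6 in GA. The arrays of the 3 groups overlapped, and the log2 fold change in GA against PBZ was -0.0183 with a 95% confidence interval of -0.58 to 0.54. That interval does not reach the -1.16 of UGT76C2, but the difference between the genes was not tested. UGT76E1, an enzyme of 12-hydroxyjasmonate conjugation, and UGT76E12 reached at most 3.3 and 1.1 in any array. UGT76D1, which acts on dihydroxybenzoates, had 12 and 10 in control, 5.8 and 8.3 in PBZ and 10.1 and 13.4 in GA, so PBZ was below the other groups (log2 fold change PBZ against control -0.30, adjusted p = 0.444). UGT76E2 had 2.9 and 1.5, 9.8 and 3.6, and 4.7 and 2.5.

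Group 85 had 5 members, all of subgroup A and all with a mean of at least 10. UGT85A2 (AT1G22360) had 102.5 and 126.6 in control, 128.1 and 102.9 in PBZ and 105.6 and 129.7 in GA, with complete overlap. UGT85A3, UGT85A5 and UGT85A7 had log2 fold changes in GA against control of -0.24, -0.32 and -0.34 (limma adjusted p from 0.748 to 0.789), and UGT85A4 is described above. In GA against PBZ 4 of the 5 were negative and 0 passed.

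Group 84 had 5 members. UGT84A3 has been described, and UGT84A4 (AT4G15500) had 31.4 and 37.3 in control, 32.4 and 44.2 in PBZ and 26.6 and 33.3 in GA, with overlapping groups. UGT84A1, UGT84B1 and UGT84B2 had means under 10, among them UGT84B1, which conjugates the auxin indole-acetic acid, at 0.9 to 10.2. Group 78 held the flavonol enzymes UGT78D1 (AT1G30530), which adds rhamnose, and UGT78D3, which adds arabinose. UGT78D1 had 82.5 and 89.7 in control, 142.3 and 82.1 in PBZ and 82.8 and 88.0 in GA, so 1 PBZ array was high and the other was not (log2 fold change PBZ against control 0.30, SE 0.24, adjusted p = 0.644). UGT78D3 stayed at 0.5 to 1.8. In group 74, UGT74F1, which glucosylates salicylate, stayed at 0.7 to 1.9.

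By target, 2 of the 3 calls are among the 9 measured genes of the list for monolignols and hydroxycinnamates (median log2 fold change in GA against PBZ 0.0444). They are UGT72E1 and UGT72B3, of which UGT72B3 is described here only as a relative of GT72B1. The other call, UGT76C2, is 1 of 3 measured cytokinin genes (median -0.0183). In the salicylate (4 genes), auxin (2), abscisic acid (3), flavonoid (2) and glucosinolate (1) lists 0 members passed in any comparison. A mean of at least 10 was reached by 0 of the salicylate genes and by 1 gene in each of the other lists. The remaining genes were dim, so the lack of calls says little about these targets. Of the brassinosteroid list 0 of 2 genes were measured. Of the 8 measured genes known as pathogen or stress responsive, 7 had a positive log2 fold change in PBZ against control (median 0.32) and 0 passed, with 7 of the 8 negative in GA against PBZ. Over all probe sets 45.7% were below 0 in PBZ against control and 57.8% in GA against PBZ. Only 3 of the 8 had a mean of at least 10, and UGT73B4, UGT73B5 and UGT73D1 had their high value in PBZ replicate 2 alone. UGT76E12, counted among the positive values, had 0.000375 in PBZ against control, which is practically no difference. Of the 4 measured genes for foreign compounds all were negative in GA against PBZ (median -0.39), with UGT76C2 the 1 that passed, where 57.8% of all probe sets were below 0 (median -0.0468). Only UGT76C2 among them had a mean of at least 10. UGT73C1 had a log2 fold change of -0.0135, and UGT73C2 had -0.28 at a mean intensity of 3. UGT73B4 rests on the 1 array named above.

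Many members sit close together on a chromosome. In the RefSeq gene order of assembly TAIR10.1, 29 of the 46 members formed 17 pairs with at most 2 coding genes between them, 14 of them direct neighbours. Some neighbours had values far apart. UGT76C2 and UGT76C1 are direct neighbours on chromosome 5, with log2 fold changes in GA against PBZ of -1.16 and -0.0183. UGT71C4 and UGT71C3, next to each other on chromosome 1, had 0.11 and -0.99. UGT71B6 and UGT71B8 on chromosome 3 had 0.59 and -0.27. UGT71C3, UGT71B6 and UGT71B8 had means under 10, where the pseudocount sets most of the fold change. With a floor of 10 in its place, UGT71B6 went to 0 and UGT71C3 to -0.73. In the run UGT85A7, UGT85A2, UGT85A5 and UGT85A3 on chromosome 1 the values were -0.0480, 0.0254, -0.30 and -0.41. No difference between neighbours was tested.

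**Figure D5:**
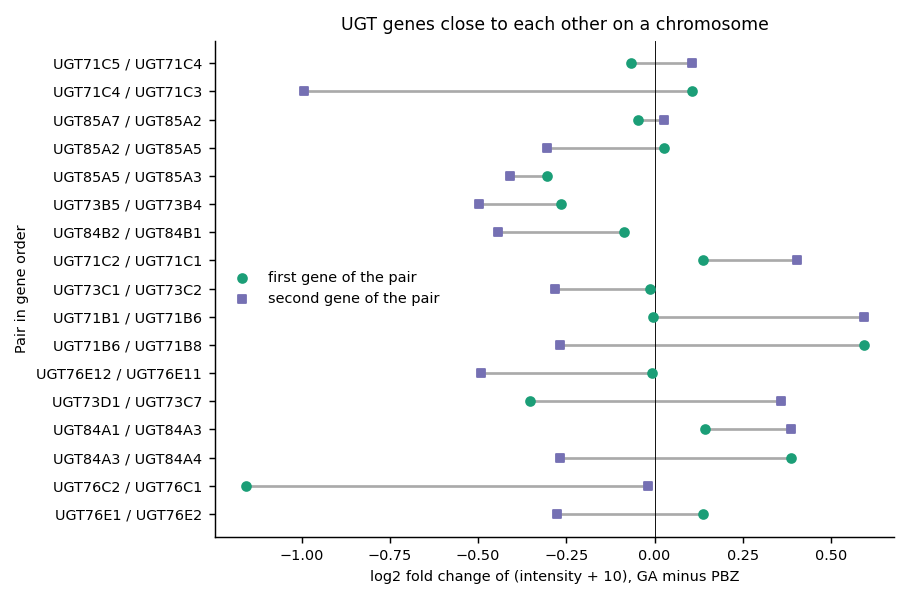
Log2 fold change of (intensity + 10), GA minus PBZ, for the 17 pairs of UGT genes with at most 2 coding genes between them; circle and square are the first and second gene in chromosome order. The widest gaps are those of UGT76C2 with UGT76C1 and UGT71C4 with UGT71C3. Genes with a mean under 10, UGT71C3 among them, are not marked.

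Genes that work beside UGT enzymes were found only in part, by symbol on a probe set of their own. Of 13 glutathione transferases, which like UGT enzymes conjugate foreign compounds, 1 fell in PBZ relative to control (background 0.514% in either direction) and 3 passed in GA against PBZ (background 2.97%). GSTU26 (AT1G17190) had 79.8 and 69.8 in control, 33.0 and 21.5 in PBZ and 92.3 and 75.6 in GA, and rose in GA relative to PBZ (log2 fold change 1.35, SE 0.19, adjusted p = 0.0262). GSTU27 (AT3G43800) also rose in GA relative to PBZ (1.61, SE 0.13, adjusted p = 0.00789) and was the 1 that fell in PBZ relative to control. GSTU23 (AT1G78320), with 23.8 and 20.6 in control, 33.9 and 34.4 in PBZ and 17.6 and 16.7 in GA, fell (-0.70, SE 0.12, adjusted p = 0.0434). Of 21 beta-glucosidases, PYK10 alone passed, higher in PBZ than in control and lower in GA than in PBZ. HCT (AT5G48930), an enzyme of lignin precursor synthesis, had 288.1 and 284.7 in control, 346.2 and 319.2 in PBZ and 241.0 and 253.5 in GA. Its groups were separate, in the same order as those of UGT72E1, and it did not pass (GA against PBZ -0.41, adjusted p = 0.149). CCR2 (AT1G80820), the other measured gene of 27 on that list, had at most 7.9. Of 35 genes for UDP-sugar supply only USP was measured, with log2 fold changes from -0.0388 to 0.0824, of 18 salicylate genes BSMT1 and WRKY53 were, of which WRKY53 rose in GA relative to PBZ (adjusted p = 0.0130), and of the 13 sugar nucleotide transporters and 16 vacuole transporters 0 were.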

How the data were processed

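The deposited table holds linear array intensities, and the authors had scaled them to a trimmed mean of 100 on each array, as the values show. The submitters' processing notes name RMA and affy without versions; RMA gives log2 values, so the background correction and probe summary are not given in the sources used here. With 64 control probe sets left out, log2(intensity + 10) of 22746 probe sets entered 1 limma fit (R 4.3.3, limma 3.58.1) with a mean per group, 3 residual and 3.07 prior degrees of freedom. Two-sided p-values received the Benjamini-Hochberg adjustment across the 22746, and an adjusted p under 0.05 counts as passing. The fit was also run on data simulated with normal noise, with spreads shuffled across probe sets. That run checks the calculation only and gives no support to the calls. Each p-value rests on the spread between the 2 arrays of a group, pooled over the 3 groups. That spread is moderated by the prior, which comes from all probe sets.

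The platform annotation names 1 gene for 13513 probe sets, several for 503, and leaves 8730 unnamed here. All 46 members matched the RefSeq gene table by Entrez number. UGT73C6, UGT74E2, UGT74F2, UGT75B1, UGT75B2, UGT84A2 and UGT85A1 have no probe set of their own by this annotation and were not analysed here.

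Members, lists, pseudocount and alternatives were chosen with earlier results of these data known. Values by array are given for members that passed, for up to 5 members each way per comparison with the largest log2 fold change, separate arrays and a mean of at least 10, and for the 5 brightest in control (UGT88A1, UGT74B1, UGT71B1, UGT71C4 and UGT85A2). Any other member shown by array was chosen after its values were seen. The alternatives tried were a block for replicate number, pseudocounts of 1 and 32, a floor of 10, an intensity trend, quantile normalization, median centring, leaving out the 40% dimmest or the cross-hybridising probe sets, fits of 2 groups and leaving out each array.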

Additional observations from a re-analysis of the deposited data

How the results depend on the processing

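The number of arrays limits every value here, and 17 members stayed under an intensity of 10 on every array. Of the alternatives to the 3 calls in GA against PBZ, 0 members passed with a pseudocount of 1 or a floor of 10, 1 in a fit of PBZ and GA alone, and 0 to 1 with 1 array left out. In GA against PBZ 4 members passed with a pseudocount of 32 (background 4.36%) and 4 of 21 without dim probe sets (background 10%). With an intensity trend, quantile normalization or median centring 3 passed (background 4.57%, 3.02% and 3.33%). In PBZ against control, where 0 members passed, 1 passed with a pseudocount of 32 and 1 with an intensity trend. Without dim probe sets, where 21 members were left, 2 passed. The share of all probe sets called in PBZ against control went from 0.514% to 1.09%, 1.46% and 4.12%. In GA against control 0 passed in all alternatives. The replicate numbers share only a number by the labels. Over all probe sets, deviations of same-numbered arrays correlated at 0.0147 (control and PBZ), 0.0313 (control and GA) and -0.000766 (PBZ and GA). Over the members these correlations were -0.244, 0.19 and 0.195 in the same order. With the replicate block 2 members passed in GA against PBZ, without UGT72B3 (limma adjusted p = 0.0794), and 0 in the other comparisons. The member median in PBZ against control (0.0499) was 0.0990 with a pseudocount of 1, 0.0165 with 32, 0 with a floor of 10, 0.0149 after median centring, 0.100 without dim probe sets and 0.0272 to 0.0745 with 1 array left out. In GA against control (-0.0163) it was -0.0468 with a pseudocount of 1, -0.15 without dim probe sets and -0.0606 to 0.0109 with 1 array left out. In GA against PBZ (-0.13) it was -0.34 with a pseudocount of 1, -0.0614 with 32, 0 with a floor of 10, -0.0908 with quantile-normalized and -0.0853 with median-centred arrays, -0.27 when dim probe sets were left out and -0.18 to -0.0779 with 1 array left out. Dimmer genes have smaller fold changes under a larger pseudocount by construction; the cause of the other shifts was not tested. Alternatives were run for 31 log2 fold changes of members, those named by rule and those with an unadjusted p under 0.05. None of the 31 changed sign, although a floor of 10 put some dim genes at 0. No member lies on a cross-hybridising probe set type, so leaving those out changed no call of a member.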

Other observations

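The stress-related pair UGT73B2 and UGT73B3 shares 1 probe set and is therefore outside the 46 genes. It had 19.5 and 27.7 in control, 51.7 and 46.4 in PBZ and 50.7 and 53.9 in GA. Both treated groups lay above control, with log2 fold changes of 0.82 (SE 0.16, limma adjusted p = 0.110) in PBZ and 0.90 (SE 0.16, adjusted p = 0.182) in GA against the same control arrays, and GA against PBZ was 0.0783 (adjusted p = 0.855). Which of the pair the signal comes from cannot be told. UGT71D1, on a probe set shared with AT2G29710, had 58.0 and 60.0 in control, 41.6 and 24.9 in PBZ and 55.2 and 52.5 in GA (log2 fold change PBZ against control -0.70, adjusted p = 0.219). UGT89B1, shared with AT1G73885, had 93.1 and 114.5 in control, 110.7 and 125.9 in PBZ and 59.2 and 98.5 in GA (GA against PBZ -0.56, adjusted p = 0.286).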
